A study of Mus musculus with 12 samples.

Results

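Amino acid transporters of the solute carrier families SLC1, SLC3, SLC6, SLC7, SLC36, SLC38 and SLC43 were followed across 12 Affymetrix arrays of mouse embryonic stem (ES) cells. Members were genes of these families whose symbol in the array's gene table had the form of Slc7a3 (family, letter a, number), without Slc38a4. Symbols that end in a further letter were not taken. Each member was read from its probe set with the highest mean over the 12 arrays. This gave 57 members among 18193 genes with a probe set of their own. The study asked how chemicals affect ES cell differentiation. D3 cells, an established mouse ES line, had been kept on mouse embryonic fibroblasts treated with MMC and were then differentiated through embryoid bodies, aggregates in which germ layer derivatives form. The 4 groups of 3 arrays were control day0 (undifferentiated, agent none), control day8 (differentiated for 8 days, agent none), BPA day8 and NP day8 (differentiated for 8 days with the agent of that name). The agents are named in the labels by these abbreviations alone, with no dose. Nothing in the labels says that the 3 arrays of a group came from separate cultures, and a p-value then covers only how far these samples scatter, which may be technical. Array-wide facts are few: the mean linear signal after trimming was between 100.037 and 100.044 on every array, and the correlation between arrays of a group lay between 0.938 and 0.951 over the genes tested.

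Cells take up amino acids through carriers that differ in substrate and driving force. SLC7 proteins carry cationic amino acids alone (the CAT proteins) or form heteromers in which an SLC7 light chain does the transport and an SLC3 heavy chain brings it to the membrane. SLC1 and SLC38 carriers draw glutamate or small neutral amino acids, among them glutamine and alanine, into the cell with sodium, SLC6 carriers move amino acids, neurotransmitters and osmolytes with sodium and chloride, and SLC36 carriers use the proton gradient. Leucine and glutamine uptake feeds the growth kinase mTORC1, and mouse ES cells are known for a high demand for threonine and glutamine. Yolk sac endoderm, which forms in embryoid bodies, is an absorptive epithelium and uses several of the same carriers as kidney and gut.

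RefSeq promoter sequences (GRCm38.p6) were available for 40 of the 57 members, and those of the 3 heteromer genes with matches on which the account below turns are shown. Each run holds the 250 bases before the most upstream start, and capitals mark matches to TGATGNAA, the core of the C/EBP-ATF element through which the amino acid response acts, or to AGATAA, the GATA motif, on either strand. The first run is chr14:54417945-54418194 on the minus strand, the second chr7:35448842-35449091 on the plus strand and the third chr17:85028097-85028346 on the plus strand.
Slc7a7: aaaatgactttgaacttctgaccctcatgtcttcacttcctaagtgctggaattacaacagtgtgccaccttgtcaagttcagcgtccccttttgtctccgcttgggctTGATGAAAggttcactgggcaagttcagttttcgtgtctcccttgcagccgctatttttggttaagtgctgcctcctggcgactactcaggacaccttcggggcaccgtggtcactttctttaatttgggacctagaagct
Slc7a9: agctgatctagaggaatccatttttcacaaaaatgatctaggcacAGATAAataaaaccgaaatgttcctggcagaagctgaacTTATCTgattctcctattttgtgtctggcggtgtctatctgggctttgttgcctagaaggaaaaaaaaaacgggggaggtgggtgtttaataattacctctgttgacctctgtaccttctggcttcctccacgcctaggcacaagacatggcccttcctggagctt
Slc3a1: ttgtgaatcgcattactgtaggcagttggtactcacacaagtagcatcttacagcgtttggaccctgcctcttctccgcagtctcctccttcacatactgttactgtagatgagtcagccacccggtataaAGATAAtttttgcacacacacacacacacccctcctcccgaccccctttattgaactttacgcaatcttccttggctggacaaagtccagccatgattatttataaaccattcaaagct
The TGATGNAA match of Slc7a7 began 141 bases before the start. Slc7a9 had AGATAA matches that began 205 bases before the start on the gene's strand and 166 bases before it on the other, and its heavy chain partner Slc3a1 had 1 match 119 bases before the start. TGATGNAA occurred in the same window of 3 of the 40 members (Slc7a7, Slc7a11 and Slc6a21) and of 3.53% of 27024 genes, and AGATAA in 2 members and 10.22% of genes. The motifs were chosen with the signals known, and a match describes letters only.

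Signals are log2 values, and a level was set as background, after the values had been seen, from the bacterial TrpnX control probe sets, whose highest value over the arrays was 3.41. After a filter on low means, 36 members were tested and 21 were not. Of the tested members, 24 lay above background on all 12 arrays, while 2 untested members did so on 0 arrays and 18 on 1 to 5. The untested members included 4 of the 8 neurotransmitter and osmolyte carriers of SLC6, 5 of its 9 amino acid carriers and 5 of the 10 heteromer light chains. Slc7a11, the light chain of the cystine-glutamate exchanger, was above background on 5 arrays, at 4.16, 4.07 and 2.37 on control day0, 3.46, 3.14 and -1.90 on control day8, 3.64, 2.75 and 0.49 with BPA and 3.61, 2.67 and 3.32 with NP. Slc38a5, a carrier of glutamine and other neutral amino acids, was above background on all 3 control day8 arrays (4.55, 3.85 and 4.88), on 1 control day0 array and on 0 of the arrays with an agent. BPA day8 replicate 1, at 3.40, lay just under background. In a fit with no filter the gene did not pass against control day8 (limma, adjusted p = 0.1155 with BPA and 0.1348 with NP).

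**Figure D1:**
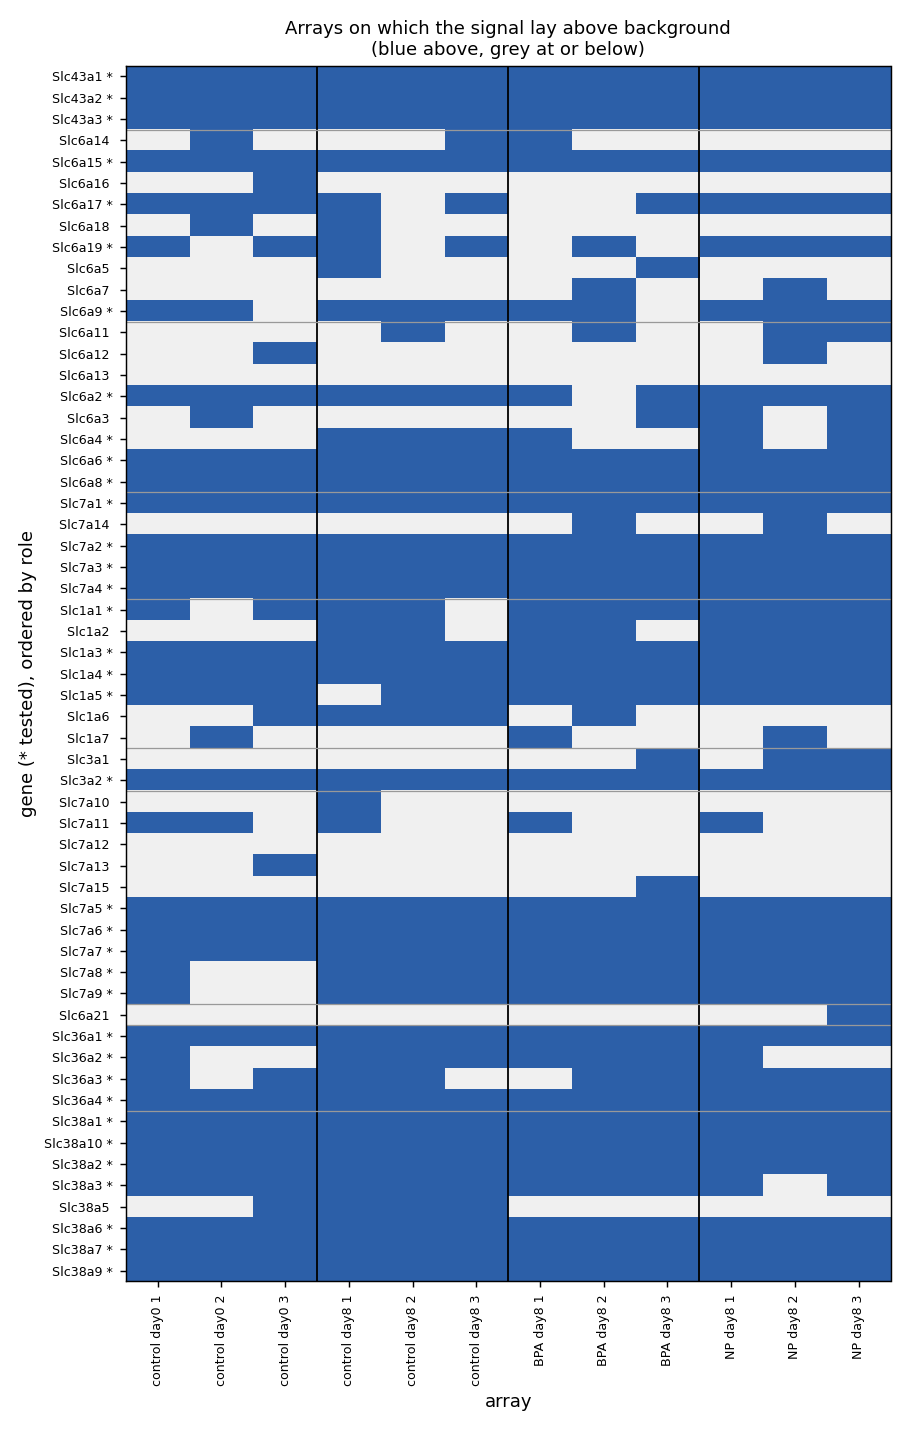
Each row is a member, ordered by role, and each column an array; blue cells lie above the background of 3.41 (log2 signal) and grey cells at or below it. An asterisk marks the 36 members tested, of which 24 are blue throughout.

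Between day 0 and day 8 without an agent, the cationic amino acid carrier Slc7a3 and the leucine and arginine exchangers Slc7a5 and Slc7a7 fell, together with Slc3a2, the heavy chain of the heteromers. Slc7a9, the light chain of the cystine and basic amino acid carrier of kidney and gut, rose most, and Slc38a6, Slc36a4 and Slc43a3 rose as well. Of the 36 members tested 10 rose and 6 fell (limma, adjusted p below 0.05), which is 44.4% of them, where 48.7% of the 13066 genes tested were called (28.3% higher and 20.5% lower). The median change was 0.09 over the members and 0.12 over all genes. For 20 members the day 0 and day 8 values did not overlap, as for 56.8% of all genes. Both quantile normalization and median centring brought the median over all genes to 0.01, with 9 members higher and 6 lower in each case.

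Among the cationic carriers, Slc7a3 (CAT3) stood at 10.14, 10.33 and 10.06 on the control day0 arrays and at 7.31, 7.18 and 7.42 on control day8. The groups lie far apart, and the fall was 2.88 on the log2 scale, a change of -2.88 ± 0.22 (SE) or 7.35-fold (adjusted p = 1.3e-05). Slc7a1 (CAT1), the widespread carrier of arginine and lysine, was at 9.52, 9.58 and 9.52 and then 9.33, 9.13 and 9.13. Its arrays did not overlap either, but the change was small, -0.35 ± 0.09, and passed neither as the mean of its probe sets nor in a fit of the control arrays alone (adjusted p up to 0.117). Slc7a2 (CAT2), an inducible carrier of arginine, rose by 0.86 ± 0.25, with an adjusted p of 0.0174 that became 0.0629 after quantile normalization.

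The heteromers moved in both directions. Slc7a5 (LAT1), the exchanger that brings in leucine and other large neutral amino acids, was at 9.94, 9.99 and 9.78 on control day0 and 9.01, 8.82 and 9.12 on control day8, a change of -0.92 ± 0.14 (adjusted p = 0.000421). Its heavy chain Slc3a2 (CD98) was at 9.72, 9.73 and 9.79 and then at 9.0, 8.24 and 9.20, with a change of -0.93 ± 0.21 (adjusted p = 0.00444). Every day 8 value of both chains lay under every day 0 value. Slc7a7 (y+LAT1), which exports basic amino acids in exchange for neutral ones, went from 7.99, 7.96 and 7.55 to 5.95, 6.35 and 7.04, a change of -1.38 ± 0.27, and its second probe set was at -1.61. Slc7a6 (y+LAT2), a carrier of the same kind, had the opposite sign, with 7.51, 7.56 and 7.93 on control day0, 8.51, 8.40 and 8.48 on control day8 and a change of 0.79 ± 0.13.

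Slc7a9 (b0,+AT) was at 4.17, 2.96 and 3.09 on control day0 and at 6.58, 5.47 and 6.91 on control day8. Since 2 of the 3 day 0 values lie under background, its rise is given as at least 2.65 (fitted change 2.91, adjusted p = 0.000283). Slc3a1 (rBAT), the heavy chain it pairs with in kidney, lay under background on all 6 control arrays, between -1.07 and 0.70. Slc7a8 (LAT2), a basolateral exchanger of neutral amino acids, was at 3.68, -0.12 and 2.81 and then at 4.55, 4.54 and 4.70, a rise of at least 1.10. Its call ended without any 1 of the 3 control day8 arrays (adjusted p up to 0.0556) and in a fit of the control arrays alone.

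The markers of the cell types differed between the same arrays. The log2 of the summed signal of 9 yolk sac endoderm markers ranged from 6.88 to 7.25 on control day0, where Afp, Ttr, Apoa1, Apob, Gata4 and Sox17 lay under background, and from 12.96 to 13.89 on control day8, with 9 of 9 called higher. The summed level of 8 pluripotency markers ranged from 14.70 to 14.73 and then from 11.60 to 12.71, with 8 of 8 called lower. Fibroblast markers, which feeder cells would carry, summed to between 12.48 and 12.83 on control day0 and between 12.53 and 13.11 on control day8, with 4 of 8 higher and 3 lower and with Thy1 and S100a4 under background at day 8. Cardiac muscle markers went from between 6.63 and 7.06 to between 11.37 and 12.12 (5 of 6 higher) and vascular endothelium markers from between 6.36 and 6.87 to between 9.19 and 9.31 (4 of 5 higher). Erythroid markers, all under background at day 0, went from between 4.13 and 5.44 to between 9.61 and 10.19 (2 of 3 tested higher), and of 6 neural markers 2 were lower. The part of these shifts in the changes of the transporters was not tested. In such bulk samples fewer cells of a type and less RNA per cell cannot be told apart.

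Of the sodium-coupled SLC38 carriers, Slc38a6, a less studied member, rose, the glutamine carrier Slc38a1 did not pass, and Slc38a2 fell by 0.48 on the log2 scale. Slc38a6 was at 6.09, 5.82 and 5.92 on control day0 and 7.41, 7.31 and 8.13 on control day8, a change of 1.67 ± 0.20 (adjusted p = 0.000129). The call did not hold for the mean of its probe sets (0.84, adjusted p = 0.165), the other of which stood just above background in both groups, at 3.53 and 3.53, with a change of 0.01. Slc38a1 (SNAT1), a glutamine carrier, was at 9.53, 9.50 and 9.46 and then at 9.62, 9.77 and 9.41, which overlap. Slc38a2 (SNAT2), a carrier of alanine and glutamine that responds to amino acid supply, was at 11.34, 11.31 and 11.31 and then at 10.95, 11.05 and 10.52. Its change of -0.48 ± 0.14 (adjusted p = 0.0189) did not pass without control day0 replicate 1 (adjusted p = 0.0509), after quantile normalization or as the mean of its probe sets. Slc38a10 rose by 0.32 ± 0.11, a call that ended without any 1 of the 6 control arrays or NP day8 replicate 2 (adjusted p up to 0.0971).

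The remaining rises came from SLC36, SLC43 and SLC1. Slc36a4, a proton-coupled or facilitative carrier of proline and tryptophan, was at 4.86, 5.22 and 5.37 on control day0 and at 6.51, 6.72 and 6.54 on control day8, a change of 1.44 ± 0.24. Slc43a3, an SLC43 member known to carry purine nucleobases, was at 4.27, 3.74 and 3.96 and then at 5.40, 5.55 and 5.23, a change of 1.41 ± 0.18. Slc43a1 (LAT3), a carrier of leucine and other neutral amino acids, was at 5.38, 5.31 and 5.06 and then at 6.46, 6.40 and 5.83, a change of 0.98 ± 0.20. In all 3 genes every day 8 value exceeded every day 0 value. Slc1a3, a glutamate carrier of glia (1.07 ± 0.20), rose, and its other probe sets above background were at 0.98 and 1.65. Slc1a5 (ASCT2), the exchanger of glutamine and other neutral amino acids, was at 5.13, 5.09 and 4.80 and then at 1.35, 4.23 and 4.64. The groups do not overlap, yet the value of control day8 replicate 1 lies far under the others, and also under background. Set to background there, control day8 was lower by at least 0.91. The fitted change on the values as deposited was -1.60 and did not pass (adjusted p = 0.0874). Slc6a9 (GlyT1), a glycine carrier, was at 5.55, 5.14 and 2.86 and then at 5.17, 5.61 and 5.88, and did not pass (adjusted p = 0.268).

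**Figure D2:**
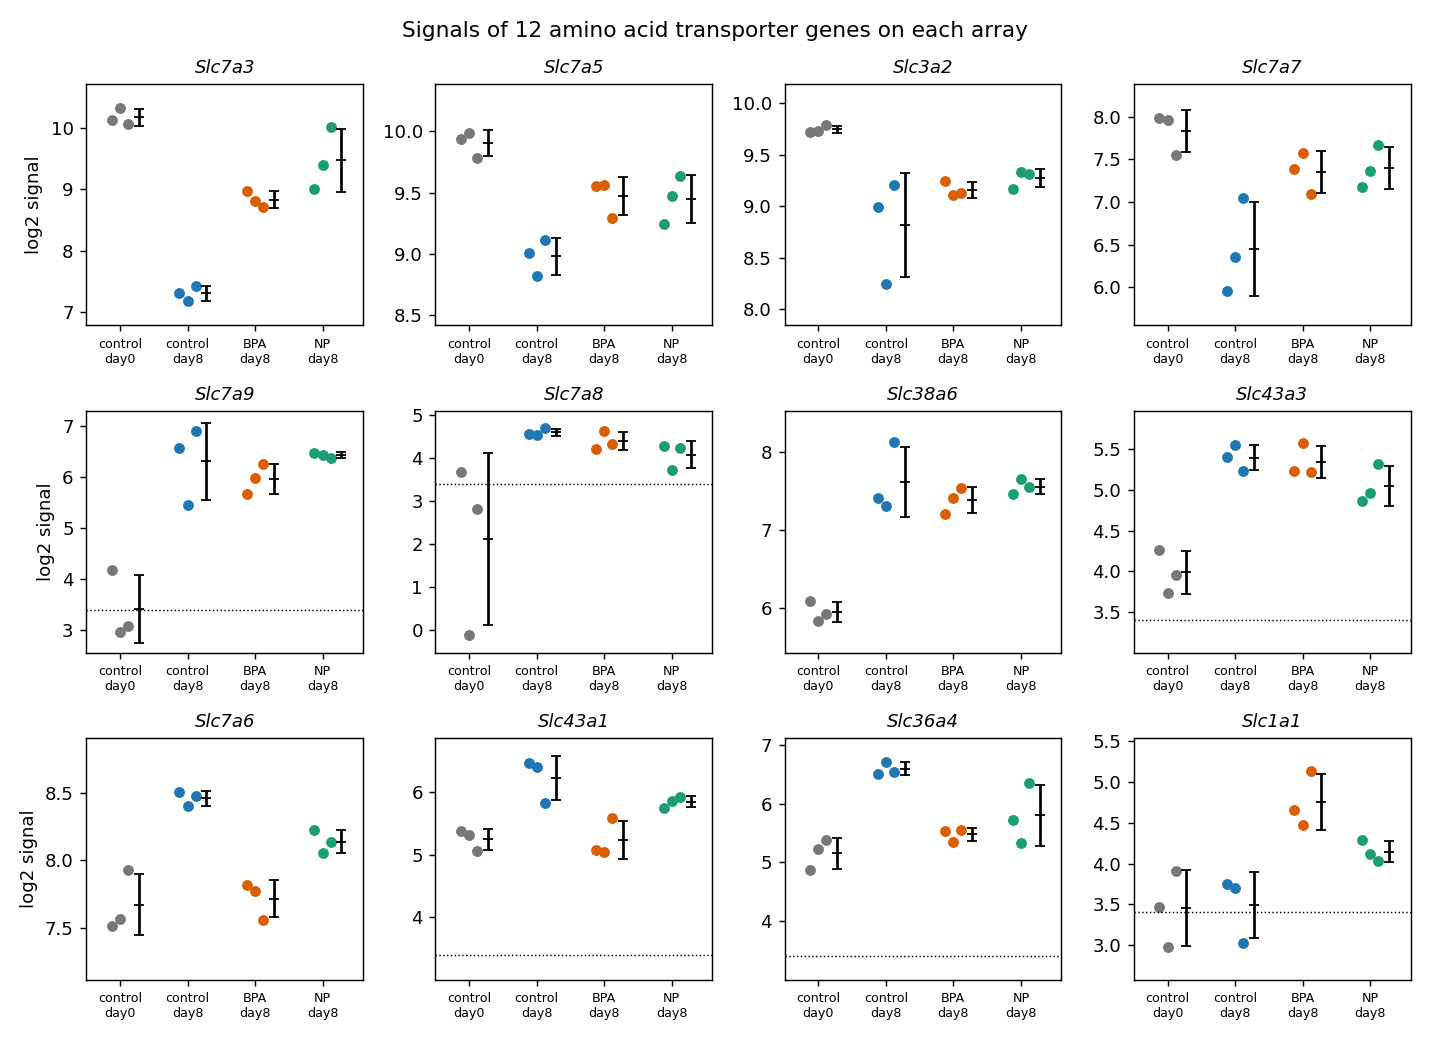
Log2 signal of 12 members on each array (points), with the mean and SD of each group of 3 beside them (bars) and the background of 3.41 as a dotted line where it falls in the panel; the axes differ between panels and do not start at 0. Slc7a3 is lowest on the control day8 arrays, and Slc7a6, Slc43a1 and Slc36a4 have their highest group mean there.

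With BPA, the carriers Slc7a3, Slc7a5 and Slc7a7 were higher and Slc7a6, Slc43a1 and Slc36a4 lower than on the control day8 arrays, and the glutamate carrier Slc1a1 was higher as well. This contrast addresses what BPA changes in cells differentiated for the same time. Of the 36 members 4 rose and 3 fell, 19.4% of them, where 22.2% of all genes tested were called (12% higher and 10.2% lower), and the members' median change was 0.00 against 0.04 over all genes. Values of the 2 groups did not overlap for 11 members and for 41.6% of all genes. The control day8 arrays also serve the comparison with day 0, so a value that is low or high there enters both with opposite signs.

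Slc7a3 was at 8.98, 8.81 and 8.72 with BPA, above the control day8 values of 7.31, 7.18 and 7.42, a change of 1.53 ± 0.22 (adjusted p = 0.00163). All BPA values were also under the lowest control day0 value of 10.06. Slc7a5 was at 9.56, 9.56 and 9.29, above all control day8 values, with a change of 0.49 ± 0.14 (adjusted p = 0.0291). Leaving out replicate 1 or 2 of either group ended its call (adjusted p up to 0.0973). Slc3a2 was at 9.24, 9.11 and 9.12, which overlaps control day8, and did not pass (0.34 ± 0.21, adjusted p = 0.27). Slc7a7 was at 7.38, 7.57 and 7.09, with a change of 0.90 ± 0.27 (adjusted p = 0.04). That call ended without control day0 or control day8 replicate 1 or 2, any BPA array or NP day8 replicate 2 (adjusted p up to 0.131). Both the Slc7a5 and the Slc7a7 calls also ended with no filter on low means and in a fit of those 2 groups alone.

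Slc7a6 was at 7.82, 7.77 and 7.56 with BPA, under every control day8 value (8.40 to 8.51), and its change was -0.75 ± 0.13 (adjusted p = 0.00353). The other probe set of Slc7a6 was at -0.81. Slc43a1 was at 5.08, 5.05 and 5.59 (change -0.99 ± 0.20, adjusted p = 0.0075), and Slc36a4 at 5.53, 5.35 and 5.55 (change -1.11 ± 0.24, adjusted p = 0.00942). These 3 genes kept their calls with every array left out in turn. Slc1a1 (EAAT3), a carrier of glutamate, aspartate and cysteine, was at 3.47, 2.98 and 3.91 on control day0, 3.75, 3.70 and 3.03 on control day8 and 4.65, 4.47 and 5.13 with BPA. It was thus higher with BPA than in either control group. The rise was at least 1.13 over control day8 (fitted change 1.26, adjusted p = 0.0108) and at least 1.16 over control day0 (fitted change 1.30, adjusted p = 0.006). The call against control day8 was lost as the mean of its probe sets or with a variance trend in the fit (adjusted p up to 0.181), and its next probe set differed by 0.19.

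With NP, Slc7a3, Slc7a7, Slc7a5 and Slc6a15 were higher than on the control day8 arrays, and the call of Slc7a3 alone held without each array in turn. The 4 rises are 11.1% of the 36 members, where 14.2% of all genes were called (7.90% higher and 6.28% lower), and the median change was 0.13 over the members and 0.01 over all genes. Values did not overlap for 15 members and for 34.8% of all genes. Without any 1 array other than control day8 replicate 3 and BPA day8 replicate 3, the count of 4 came to 1 or 2. Slc7a3 was at 9.0, 9.40 and 10.02, all above control day8, with a change of 2.17 ± 0.22 (adjusted p = 0.000743). Slc7a7 was at 7.18, 7.36 and 7.67 (change 0.95 ± 0.27, adjusted p = 0.045), and its call ended without any 1 array other than control day0 or control day8 replicate 3 (adjusted p up to 0.145). Slc7a5 was at 9.24, 9.47 and 9.63 (change 0.47 ± 0.14, adjusted p = 0.0479), and its call ended without any 1 array other than control day8 replicate 3, BPA day8 replicate 3 and NP day8 replicate 1 (adjusted p up to 0.156). For both genes every NP value lay above every control day8 value, and both calls ended with no filter on low means and in a fit of those 2 groups alone (adjusted p up to 0.13).

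Slc6a15 (B0AT2), a carrier of proline and branched-chain amino acids best known from neurons, was at 6.38, 6.52 and 6.48 on control day0, 5.75, 6.33 and 5.89 on control day8, 6.12, 6.11 and 5.34 with BPA and 6.68, 6.67 and 7.24 with NP. The NP values exceed all others of the gene. Its change against control day8 was 0.87 ± 0.25 (adjusted p = 0.0449), and the call ended without any 1 array other than control day8 replicate 2 and BPA day8 replicate 3 (adjusted p up to 0.147), and also with no filter, with averaged probe sets and in a fit of those 2 groups alone. Slc36a4 was at 5.72, 5.33 and 6.36 with NP, under every control day8 value, and missed the threshold (-0.79 ± 0.24, adjusted p = 0.0531). Slc7a6 (8.22, 8.05 and 8.14) and Slc43a1 (5.75, 5.87 and 5.93) changed by -0.32 and -0.38 and did not pass (adjusted p = 0.126 and 0.245). Slc3a2 was at 9.17, 9.33 and 9.31 (change 0.46, adjusted p = 0.18) and Slc38a2 at 11.08, 11.08 and 11.16 (0.27, adjusted p = 0.248). Slc1a5 was at 4.85, 4.92 and 5.02, higher by at least 0.84 (fitted change 1.52, adjusted p = 0.187).

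The cell type markers moved with both agents too. The log2 of the summed pluripotency markers ranged from 14.25 to 14.32 with BPA and from 13.96 to 14.38 with NP, with 8 of 8 higher than control day8 in each. Fibroblast markers ranged from 9.39 to 9.73 and from 9.01 to 9.78, with 6 of 8 lower in each. Cardiac muscle markers ranged from 7.58 to 8.80 with BPA and more widely, from 7.56 to 10.50, with NP, with 4 of 6 lower in each. Vascular endothelium markers ranged from 7.73 to 7.99 with BPA and from 7.66 to 8.09 with NP, with 3 of 5 lower in each. Erythroid markers ranged from 5.40 to 8.32 and from 4.64 to 8.32, with 0 of 3 tested lower with BPA and 1 with NP, and 1 of 6 neural markers was higher in each. Yolk sac endoderm markers ranged from 12.89 to 13.38 with BPA and from 13.63 to 13.80 with NP, with 1 of 9 lower than control day8 in each. The part of these shifts in the transporter changes was not tested.

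The other 17 tested members passed in none of the 6 comparisons, among them the neutral exchangers Slc1a4 and Slc1a5, the glutamine carriers Slc38a1, Slc38a3 and Slc38a7, the taurine carrier Slc6a6 and the creatine carrier Slc6a8. Slc38a7, a lysosomal glutamine carrier, came near the threshold with BPA (0.63, adjusted p = 0.0618). Slc6a6 and Slc6a8 changed by 0.30 and -0.24 at day 8 (adjusted p = 0.154 and 0.348). The other probe set of Slc6a8, with a mean of 7.08, differed by 0.22 at day 8. Against control day8 it differed by 0.88 with BPA and 0.43 with NP, and it was not tested on its own. Slc6a9 was at 5.22, 3.87 and 2.99 with BPA and 5.21, 6.03 and 5.42 with NP. The BPA mean, with 1 array under background, was lower than control day8 by at least 1.39 (fitted change -1.53, adjusted p = 0.162). Slc38a1 was at 9.64, 9.67 and 9.68 with BPA and 9.76, 9.74 and 9.73 with NP, changes of 0.07 and 0.14 from control day8.

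**Figure D3:**
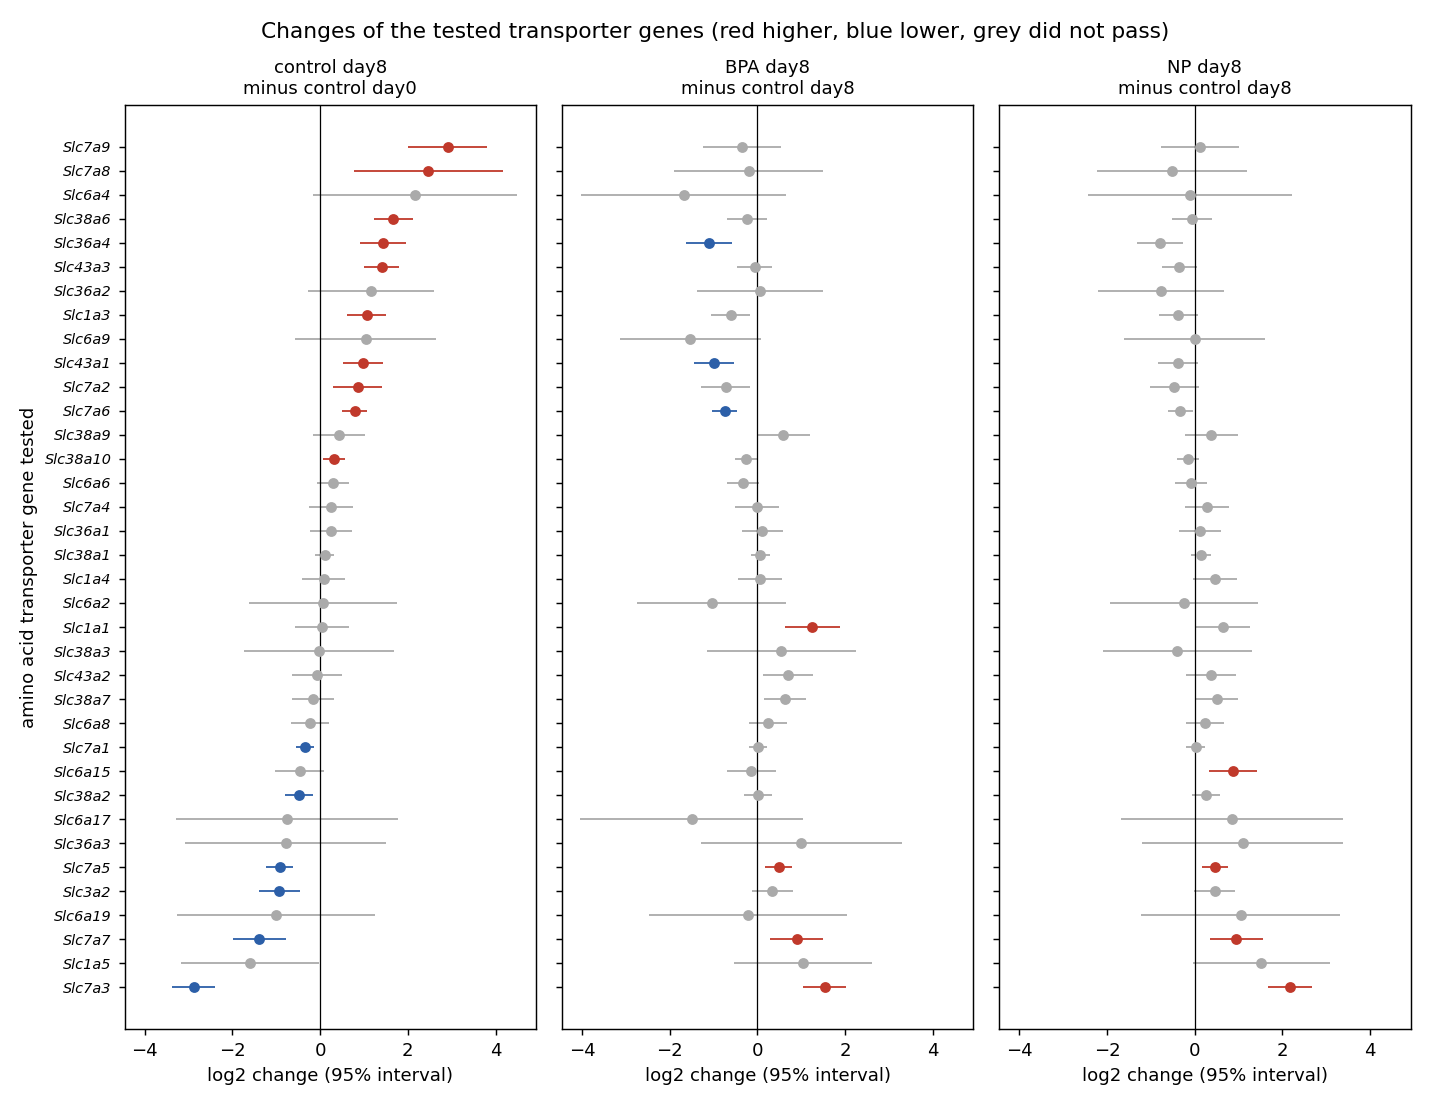
Log2 change of the 36 tested members in 3 comparisons, as points with unadjusted 95% intervals; red members are called higher, blue lower, and grey did not pass. Slc7a3 lies lowest in the first panel at -2.88 and highest in the NP panel at 2.17.

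NP and BPA were then compared with each other, a test that uses no control array in the difference. By limma 0 of 36 members passed, where 0.00765% of all genes were called at the same adjusted threshold. At an unadjusted p below 0.05 there were 4 members. No share of all genes was taken at that level, so this number is not read as a result. Values did not overlap for 9 members and for 17.0% of all genes. Those 4 were all higher with NP. Slc6a15 differed by 1.01 (95% interval 0.45 to 1.56, adjusted p = 0.352) and Slc7a3 by 0.64 (0.15 to 1.13, adjusted p = 0.488). Slc7a6 differed by 0.42 (0.14 to 0.71, adjusted p = 0.434) and Slc43a1 by 0.61 (0.16 to 1.06, adjusted p = 0.473). For Slc7a5 the difference was -0.02 (-0.33 to 0.28) and for Slc7a7 0.05 (-0.55 to 0.66). A call with 1 agent and not the other, such as that of Slc7a6 or Slc6a15, is therefore not shown to differ between them.

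Set against the undifferentiated cells, 6 members were higher and 4 lower with BPA, and 7 higher and 3 lower with NP, 27.8% of 36 in each, where 33.6% of all genes were called for BPA (21.7% higher, 11.9% lower) and 32.1% for NP (20.2% and 11.9%). Values did not overlap for 15 members with BPA and 21 with NP, against 49.4% and 47.6% of all genes. Slc7a9 was at 5.67, 5.99 and 6.26 with BPA and 6.48, 6.44 and 6.38 with NP, higher than control day0 by at least 2.31 and at least 2.77. Slc38a6 (7.21, 7.41 and 7.53 with BPA and 7.46, 7.65 and 7.55 with NP) rose by 1.44 ± 0.20 and 1.61 ± 0.20, and Slc43a3 by 1.35 ± 0.18 and 1.06 ± 0.18. These 3 day 8 rises thus also passed in the presence of each agent, while against control day8 the 3 genes did not pass with either agent. The calls of Slc38a6 were lost as the mean of its probe sets (adjusted p = 0.22 and 0.799). Slc7a3 remained lower than at day 0, by -1.34 ± 0.22 with BPA and -0.70 ± 0.22 with NP. The NP call ended without any 1 control day0 array or NP day8 replicate 1 or 2 (adjusted p up to 0.106). It also ended with no filter, after quantile normalization and in a fit of the compared groups alone. Slc7a5 was lower by -0.43 ± 0.14 and -0.46 ± 0.14, calls that ended without control day0 replicate 1 or 2, any BPA array, or NP day8 replicate 1 or 2 (adjusted p up to 0.115). The same 3 settings that ended the NP call of Slc7a3 ended both calls of Slc7a5. Slc7a1 was at 9.33, 9.22 and 9.10 with BPA and 9.22, 9.18 and 9.27 with NP, lower by -0.33 ± 0.09 and -0.32 ± 0.09, with calls that single arrays ended (adjusted p up to 0.0833). No filter, quantile normalization, averaged probe sets and a fit of the compared groups alone also ended both calls (adjusted p up to 0.104 with BPA and 0.267 with NP). The other probe set of Slc7a1 above background differed from control day0 by -0.14 with BPA and 0.0051 with NP. The NP count of 10 was 4 without control day0 replicate 1 or 2, 3 without NP day8 replicate 1 and 6 without NP day8 replicate 2. Quantile normalization left 5 higher and 2 lower for BPA and 4 higher and 0 lower for NP, and median centring 5 and 4 for BPA and 4 and 3 for NP. The cell type markers differed from control day0 as well. With each agent 8 of 8 fibroblast markers were lower, and 9 of 9 yolk sac endoderm, 3 of 5 vascular endothelium and 2 of 6 cardiac muscle markers higher. Of 8 pluripotency markers 3 were lower with BPA and 2 with NP. The part of these shifts in the transporter changes was not tested.

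Genes around the transporters were read from 5 lists, in which Shmt2 and Sesn2 stand more than once. The shares of all genes called, for reading their counts, were 28.3% higher and 20.5% lower at day 8, 12% and 10.2% with BPA, and 7.90% and 6.28% with NP. A list of mitochondrial carriers, most of them for amino acids, had 6 of 10 members lower and 0 higher at day 8, with a median of -0.66. Slc25a12, an aspartate-glutamate carrier (-0.83 ± 0.15, not called with averaged probe sets), and its paralog Slc25a13 (-0.83 ± 0.14) were among them, but so were Slc25a40 (-1.03 ± 0.20) and Slc25a39 (-0.66 ± 0.10), which are known for glutathione. With BPA 5 of the 10 were higher than control day8 (3 when probe sets were averaged) and with NP 3, with Slc25a40 at 1.08 ± 0.20 and 1.23 ± 0.20 and Slc25a39 at 0.75 ± 0.10 and 0.52 ± 0.10. Of 8 lysosomal, vesicular and peptide carriers 5 rose and 0 fell at day 8, with Mfsd12, a lysosomal cysteine carrier (2.06 ± 0.37), and Slc15a2, a peptide carrier (1.57 ± 0.24), the largest. With BPA 1 of the 8 was higher than control day8, Slc15a1, a call that ended without any of 8 arrays (adjusted p up to 0.135), and with NP 0 passed, or 1 without control day8 replicate 3.

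Enzymes of amino acid metabolism fell for 10 of 19 members at day 8 and rose for 1, Oat, the ornithine aminotransferase (2 without BPA day8 replicate 1 or 3). The shares of all genes were 20.5% and 28.3%. Bcat1, the cytosolic branched-chain aminotransferase (-2.04 ± 0.18), Shmt1, a serine hydroxymethyltransferase (-1.59 ± 0.15), and Bcat2, the mitochondrial aminotransferase (-1.38 ± 0.25), fell most. With BPA 7 of the 19 were higher and 2 lower (0 lower without any 1 BPA array, and 1 without any 1 control day0 array, control day8 replicate 1 or 3 or NP day8 replicate 2) and with NP 9 were higher, and Bcat1 was at 1.28 ± 0.18 and 1.38 ± 0.18. Leaving out any 1 array lowered the NP count, to between 4 and 8. It was 4 without control day8 replicate 1 or NP day8 replicate 3 and 5 without control day8 replicate 2.

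The amino acid response, the program that ATF4 turns on when amino acids run short, had 15 of 28 genes lower and 5 higher at day 8, where 20.5% and 28.3% of all genes were. Nupr1, a stress-induced nuclear protein (-3.23 ± 0.39), and Cth, which makes cysteine (-1.94 ± 0.24), fell most, Atf4 itself was at -0.53 ± 0.12, and Vldlr, a lipoprotein receptor (2.52 ± 0.21), rose most. With BPA 5 genes were higher and 3 lower and with NP 7 higher and 1 lower, so that 8 of 28 were called with each agent, where 22.2% and 14.2% of all genes were. Asns, asparagine synthetase, was at 0.79 ± 0.09 and 0.76 ± 0.09 and kept its call without each array in turn. The counts leaned on single arrays. Without control day8 replicate 1 the higher counts were 2 and 1, and without replicate 2 of that group 3 and 2. Without BPA day8 replicate 2 or 3 the BPA count was 3, and without NP day8 replicate 2 or 3 the NP count was 2. The BPA count of 3 lower genes was 1 without control day8 replicate 1 or BPA day8 replicate 3. The 1 lower gene with NP, Vldlr, lost its call without any 1 of 9 arrays. Of the mTORC1 amino acid sensing genes 8 of 26 rose at day 8 and 3 fell, near or under the shares of all genes (28.3% and 20.5%), with Sesn3, a sestrin (2.45 ± 0.17), and Rragd, a Rag GTPase (1.64 ± 0.19), higher and Castor1, the arginine sensor (-1.34 ± 0.17), lower. Castor1 was higher than control day8 with BPA (1.57 ± 0.17) and with NP (0.84 ± 0.17). With BPA 3 of the 26 were higher and 2 lower, and with NP 3 were higher and 0 lower, near the 22.2% and 14.2% of all genes called. The BPA count of higher genes was 1 without control day8 replicate 1 or BPA day8 replicate 2, and that of lower genes 1 when BPA day8 replicate 3 or replicate 1 or 2 of control day8 was left out.

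**Figure D4:**
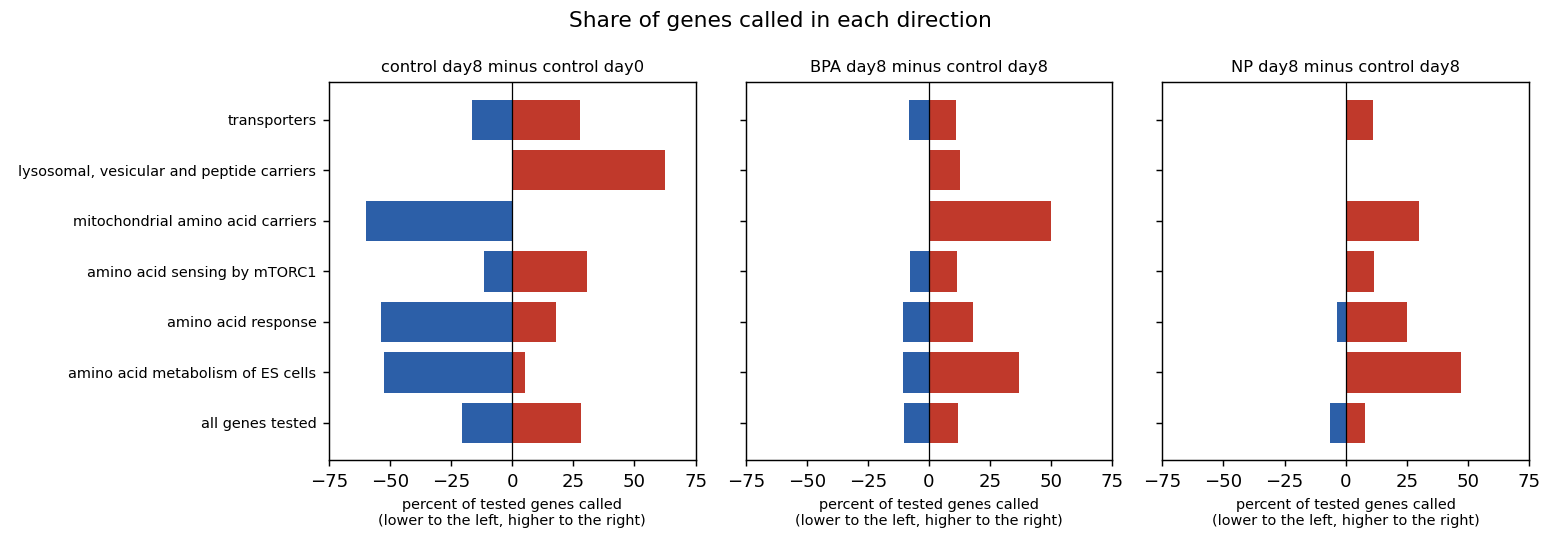
Percent of the tested genes called higher (red, to the right) and lower (blue, to the left) for the transporters, 5 related lists and all genes tested, in 3 comparisons. The transporters' total bars, 44.4%, 19.4% and 11.1%, lie near those of all genes, 48.7%, 22.2% and 14.2%.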

How the data were processed

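The authors deposited log2 signals per probe set made with MAS5, per the submitters' processing notes, with no version or scaling target stated; every array had a common trimmed mean (2% trimmed at each end), and no detection calls were among the values used here. Of 45101 probe sets, 64 were controls, and names came from the platform's gene table (57 of 57 members matched a RefSeq gene by Entrez identifier). Values were used as deposited. Probe sets were ranked by mean signal, the top 60% were retained, and the brightest stood for its gene, leaving 13066 genes. limma 3.58.1 (R 4.3.3) estimated the 4 group means from the 12 arrays in a joint model (8 residual and 1.57 prior degrees of freedom), 2-sided, with Benjamini-Hochberg adjustment over all genes tested per comparison and a threshold of 0.05. The fit was checked on simulated data. Where values of the lower group lay under background they were set to it and the change is given as a lower bound. The p-values beside such bounds belong to the fitted change on the values as deposited. Named were members called in any comparison and a fixed set of others; members, lists and rules were chosen with earlier results of these data known. Alternatives were pseudocounts of 16 and 32, other filters, scalings, probe set choices, variance settings, fitted samples, a replicate block and each array left out. Same-numbered arrays deviated together from their group means only weakly if at all (correlations from -0.01 to 0.08), so numbers were not taken as pairs. For control day0 and BPA day8, however, 6 of 6 arrays correlated best with the array of their own number, so a shared replicate effect is not excluded. Figures were drawn with matplotlib 3.10.9. The number of arrays limits precision.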

Additional observations from a re-analysis of the deposited data

Results flagged for a closer look

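Members that the filter left out were compared with the control day8 arrays on their own values, and 2 of them had an agent group above background with every array above every control array. Slc3a1, the rBAT heavy chain, was at 3.08, 3.16 and 4.32 with BPA (mean 3.52) and at 2.72, 3.62 and 3.97 with NP (mean 3.44), against 0.18, -0.49 and 0.04 on control day8 and -1.07, 0.70 and -0.05 on control day0. All 6 control values lie under the background of 3.41, and so do 3 of the 6 with an agent, so with the control values set to background the agent means of the gene are higher by at least 1.08-fold with BPA and at least 1.02-fold with NP. In the fit without the filter it passed against control day8 (limma, adjusted p = 0.00346 with BPA and 0.00655 with NP). Those p-values use the values under background as deposited and the same arrays by which the gene was flagged, so they add no separate support. Slc1a2, a glutamate carrier of glia, was at 4.15, 4.08 and 3.91 with NP (mean 4.04) against 3.86, 3.79 and 2.68 on control day8. It did not pass in that fit.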

How the results depend on the processing

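All 47 calls of a member in the 6 comparisons kept their direction under the alternatives run, 27 of them kept the threshold with each array left out in turn, and 21 kept it under every alternative. Leaving out 1 array gave 14 to 16 members called for control day8 against control day0, 5 to 9 for BPA and 1 to 4 for NP against control day8, 0 throughout for NP against BPA, 7 to 11 for BPA and 3 to 12 for NP against control day0. Other settings moved a count of members by over 1.5 times in these cases. A pseudocount of 32 gave 11 members for BPA against control day8 in place of 7. For NP against control day8 the count of 4 was 2 with no filter, 1 with only the compared groups and 1 with the replicate block. For NP against control day0 the count of 10 was 6 with no filter, again with Slc3a1 among them, 4 after quantile normalization and 6 with averaged probe sets. With the replicate block 17 members were called for control day8 against control day0, 5 for BPA against control day8, 9 for BPA and 7 for NP against control day0. Among the calls lost were those of Slc7a5 and Slc7a7 for BPA against control day8. Against control day0 they included Slc7a5 with each agent and Slc7a3 with NP. Between 1 and 6 of 6 arrays per pair of groups correlated best with the array of their own number. Counts in the related lists moved by over 1.5 times as follows. For amino acid metabolism with NP the 9 higher were 5 with no filter and 5 with the replicate block. With BPA its 2 lower were 0 with no filter or median centring and 1 with averaged probe sets or the block, and at day 8 its 1 higher was 2 with quantile normalization, averaged probe sets or a variance trend. For the amino acid response the 5 higher with BPA were 8 and the 7 higher with NP 11 with a variance trend. Its 3 lower with BPA were 5 with quantile normalization or a variance trend, its 1 lower with NP was 0 with no filter, median centring or averaged probe sets, and its 5 higher at day 8 were 3 with averaged probe sets. For mTORC1 sensing with BPA the 3 higher were 1 with no filter or the block, and the 2 lower were 4 with a variance trend and 1 with no filter, median centring or averaged probe sets. With NP 1 was lower with a variance trend in place of 0, and at day 8 the 3 lower were 5 with either scaling and the 8 higher 5 with averaged probe sets. The 1 lysosomal, vesicular or peptide carrier higher with BPA was 2 with quantile normalization and 0 with no filter, averaged probe sets, the block or a variance trend. For the mitochondrial carriers with BPA the 5 higher were 3 with averaged probe sets, and 1 was lower with the block in place of 0. The cause of these shifts was not tested. Members near background have only a bound or no order, and the number of arrays limits all values.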

Other observations

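Probe sets of the same gene did not always share a direction. Of 16 calls with a further probe set above background, 10 had all of these in the same direction and 6 did not. This count took the sign alone, whatever the size, and several genes entered it with more than 1 call. Slc7a6 with NP against control day0, at 0.47 with its other probe set at 0.0006, counted as the same direction. Slc38a9, the lysosomal arginine sensor, was called higher than control day0 with BPA at 1.03, while its 5 other probe sets above background ranged from -0.28 to 0.57. Slc38a10 was called at 0.32 at day 8, with 5 others between -0.90 and 1.80. The next brightest of these, with means of 7.85 and 7.38, were at 0.31 and 0.22. The ends of the range came from dimmer probe sets, with means of 4.45 and 5.05.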
